A study of Mus musculus with 12 samples.

Results

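The genes described here are 35 mouse genes of the unfolded protein response and of amino acid stress, measured in liver after deletion of Keap1 in hepatocytes, after the drug CDDO-Im, or after both. They are a list of gene names, found through the probe sets whose platform annotation names 1 of these genes alone. Such probe sets were found for 35 of the 35 genes (80 probe sets), out of 18193 genes that at least 1 probe set names alone. The genes fall into 14 endoplasmic reticulum (ER) chaperones and folding enzymes, 7 genes of ER-associated degradation, 5 stress sensors and transcription factors, and 9 targets of the transcription factor Atf4. The brightest probe set stood for each gene. Of the 35, 34 passed the filter on low signal (at least 3 arrays above a log2 value of 5). Nupr1 did not pass, and its highest signal lay near the lowest values of the arrays.

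Liver RNA from 12 male mice, 9 weeks old, was measured on 1 Affymetrix mouse array per mouse, and the values are log2 signals. CKO CDDO-Im mice (replicates 2, 3 and 4) carried Albumin-Cre:Keap1(flox/-) and received 30 umol CDDO-Im per kg of body weight, while CKO vehicle mice (replicates 3, 4 and 5) had the same genotype and received the carrier of DMSO, Cremophor-EL and PBS alone. WT CDDO-Im mice (replicates 2, 3 and 4) and WT vehicle mice (replicates 1, 2 and 3) were the genetic controls, Alb-Cre:Keap1(flox/+), given the same dose or the same carrier. Dosing was by gavage, livers were taken after 6 h, and the labels give a C57BL/6J strain. All 4 groups carry Cre and a floxed Keap1 allele. Albumin-Cre acts in hepatocytes, so the WT hepatocytes may be left with a single functional allele, and the other liver cells of CKO mice keep the floxed allele beside a null one. CDDO-Im is a synthetic oleanane triterpenoid that activates Nrf2, the transcription factor that Keap1 targets for degradation. Each group held 3 mice, and groups are shared between comparisons, so the 5 comparisons and the interaction are not independent of each other.

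When unfolded proteins collect in the ER, 3 sensors in its membrane respond. Ern1 (IRE1) splices the Xbp1 message, Atf6 is cut in the Golgi to release a transcription factor, and Eif2ak3 (PERK) phosphorylates the initiation factor eIF2 alpha. Xbp1 and Atf6 raise chaperones and degradation factors, in part through the ER stress response element. Phosphorylated eIF2 alpha slows general translation and favours translation of Atf4, whose targets hold the C/EBP-ATF response element. Eif2ak4 (GCN2), a kinase that senses a shortage of amino acids, feeds into the same Atf4 step, so Atf4 targets can rise without the chaperones. Hepatocytes carry a heavy load of secreted protein and are the main site of amino acid breakdown.

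The promoters of the members show how the chaperone and Atf4 target lists differ in sequence. RefSeq promoter windows (build GRCm38.p6, 250 bases before to 50 bases after the start) were matched by symbol for 31 of the 35 members. The ER stress response element was searched on both strands as CCAAT, 9 bases of any kind, and CCACG. It was present in the window of 7 of 12 chaperones (58.3%), 2 of 6 degradation genes, 0 of 4 sensors and factors and 0 of 9 Atf4 targets, against 0.137% of the 27025 genes in the table. The matches follow with 5 bases on each side, on the strand where the motif reads forward, and capitals mark the fixed letters of the motif.
Hspa5 (chr2:34772020-34772048, plus strand): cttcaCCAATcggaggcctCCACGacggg
Hsp90b1 (chr10:86705633-86705661, minus strand): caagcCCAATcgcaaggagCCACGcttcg
Hsp90b1 (chr10:86705528-86705556, plus strand): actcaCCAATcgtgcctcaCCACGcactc
Calr (chr8:84847070-84847098, plus strand): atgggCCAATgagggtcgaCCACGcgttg
Canx (chr11:50325795-50325823, minus strand): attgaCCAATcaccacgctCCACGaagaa
Pdia6 (chr12:17266486-17266514, plus strand): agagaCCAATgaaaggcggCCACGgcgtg
Dnajc3 (chr14:118937822-118937850, plus strand): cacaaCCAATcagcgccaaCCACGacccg
Creld2 (chr15:88819515-88819543, minus strand): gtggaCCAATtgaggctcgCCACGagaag
Derl3 (chr10:75893237-75893265, minus strand): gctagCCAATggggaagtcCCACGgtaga
Syvn1 (chr19:6046527-6046555, plus strand): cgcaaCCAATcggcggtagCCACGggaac

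The C/EBP-ATF response element, searched on both strands as TGATGNAA, was present for 4 of 9 Atf4 targets (44.4%), 0 of 12 chaperones and 1 degradation gene, Herpud1, against 4.51% of all genes in the table. Capitals again mark the fixed letters. These matches are shown because the element was found for some Atf4 targets and for no chaperone, though most of the 9 Atf4 targets had none.
Asns (chr6:7693220-7693237, minus strand): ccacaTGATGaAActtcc
Trib3 (chr2:152344034-152344051, plus strand): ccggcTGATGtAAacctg
Chac1 (chr2:119351044-119351061, minus strand): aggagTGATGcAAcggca
Nupr1 (chr7:126625568-126625585, plus strand): ctgtcTGATGcAAtctgg
Herpud1 (chr8:94386312-94386329, minus strand): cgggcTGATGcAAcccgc

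The whole window is shown for Dnajb9, the member that passed the test below. It holds no ER stress response element but has CCACG at 108 and at 15 bases before the start, in capitals. CCACG, which is also the end of the ER stress response element, occurred in the windows of 80.6% of members and 35.5% of all genes.
Dnajb9 (chr12:44210019-44210318, minus strand): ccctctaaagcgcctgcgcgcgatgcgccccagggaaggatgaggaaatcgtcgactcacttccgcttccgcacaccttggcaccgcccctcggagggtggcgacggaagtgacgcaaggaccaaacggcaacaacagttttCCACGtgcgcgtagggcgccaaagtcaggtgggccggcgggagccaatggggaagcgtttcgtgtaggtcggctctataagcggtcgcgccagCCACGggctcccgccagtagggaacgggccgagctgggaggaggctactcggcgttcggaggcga
The antioxidant response element, through which Nrf2 acts, was searched on both strands as TGACNNNGC and was found for 25.8% of members and 14% of all genes. The unfolded protein response element TGACGTGG, searched the same way, was in the window of 0 of 31 members and of 0.714% of all genes. A match in these windows is a description of the sequence, and no match says only that the letters are not in the window.

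Keap1 was examined first. Its first probe set read 2.74 to 3.31 on the 6 CKO arrays, against 7.92 to 8.89 on the 6 WT arrays, and its second read 6.15 to 6.51 against 6.58 to 8.08, so that the genotypes did not overlap on either. Whether either probe set lies inside the deleted exons is not stated in the labels. Array medians lay between 2.325 and 2.344, and the lowest correlation between replicates was 0.9958. Among cell markers, the summed level of the 9 measured hepatocyte markers lay between 18.41 and 18.55 (log2) over all 12 arrays, while single markers moved more, such as Pck1, which ranged from 10.29 to 13.38. Between CKO vehicle and WT vehicle livers limma called 4 of the markers measured: Marco of macrophages and Kupffer cells (log2 change 2.30) and Lyve1 of endothelial cells (2.24) rose, and Fabp1 of hepatocytes (-0.79) and Reln of stellate cells (-0.51) fell. These are single genes and do not stand for their lists. Of endothelial markers 3 had a higher and 5 a lower mean (median -0.07), and of hepatocyte markers 5 and 4 (median 0.05). For macrophages and Kupffer cells the counts were 6 and 2 (median 0.21), and for stellate cells and fibroblasts 3 and 5 (median -0.35). The WT vehicle mean of Marco, 4.86, lay below 5. With the drug in WT livers Lyve1 (2.57) and the hepatocyte marker Asgr1 (0.36) rose. For CKO vehicle against WT CDDO-Im, Fabp1 (-0.66) and Asgr1 (-0.30) were called lower. The part of these markers in the results that follow was not tested. Of the measured markers, 6 of 7 for pancreatic acinar cells, 6 of 7 for B and plasma cells and 6 of 6 for T and NK cells stayed below 5 on every array. Pancreatic acinar and plasma cells are secretory cells rich in ER chaperones.

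Of the 34 members tested, 1 passed the limma test at an adjusted p under 0.05 in any comparison, the chaperone Dnajb9, which rose with Keap1 deletion. Between the vehicle groups (CKO vehicle minus WT vehicle) 1 member rose and 0 fell, where 6.51% of the 8338 genes tested were called, 3.25% higher and 3.26% lower. Setting CKO vehicle against WT CDDO-Im, again 1 rose and 0 fell, beside 4.29% of genes tested called, 2.42% higher and 1.87% lower. No member was called for the drug in WT livers (0 of 34, beside 3.65% of genes tested, 1.88% higher and 1.76% lower). The same holds for CKO CDDO-Im against WT CDDO-Im (0 of 34, beside 1.54%), for the drug in CKO livers (0 of 34, beside 0%) and for the interaction of genotype and drug (0 of 34, beside 0.276%). At an unadjusted p under 0.05 there were 6 members (17.6%) for the drug in WT livers, beside 19.6% of genes tested, and 6 (17.6%) between the drug-treated groups, beside 16.8%. For the drug in CKO livers there were 12 members (35.3%), all 12 of them lower, beside 9.47% of genes tested in either direction and 6.19% lower. For the interaction there were 3 (8.82%), beside 10.3%.

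Dnajb9 (ERdj4), an ER co-chaperone that assists Hspa5 and restrains Ern1, was higher in both CKO groups. Its log2 signals were 13.53, 13.32 and 13.15 in CKO CDDO-Im livers, 13.25, 13.31 and 13.60 in CKO vehicle livers, 12.48, 12.59 and 12.83 in WT CDDO-Im livers and 12.09, 12.72 and 12.63 in WT vehicle livers. All 6 CKO livers lay above all 6 WT livers. CKO vehicle livers were 1.87-fold above WT vehicle livers (log2 change 0.90 ± 0.18 SE, adjusted p = 0.0147, 95% interval 0.51 to 1.30). They were 1.69-fold above WT CDDO-Im livers (0.76 ± 0.18, adjusted p = 0.0419). Between the drug-treated groups the change was 0.70 ± 0.18 without a call (adjusted p = 0.0826), and CDDO-Im in WT livers gave 0.15 ± 0.18 (adjusted p = 0.703). The call between the vehicle groups was lost without CKO vehicle replicate 5 (adjusted p = 0.0528), with no filter on low values (0.0662), with only the groups compared in the fit (0.0817) and with the replicate number as a block (0.207). That against WT CDDO-Im was lost in 9 of the 12 fits that left out 1 array (adjusted p up to 0.114) and in the same 3 other fits (up to 0.139).

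The other 13 chaperones gave no call in any comparison. In CKO livers given the drug, however, all 14 chaperones had a lower mean than in CKO livers given vehicle, by 0.02 to 0.71 on the log2 scale, with a median change of -0.34. Among all genes tested, 56.2% had a lower mean and the median change was -0.024. The values of 9 of the 14 chaperones did not overlap between the groups and lay lower in CKO CDDO-Im livers, beside 9.4% of genes tested, and 0 lay higher, beside 5.18%. Each of these 9 had an unadjusted p under 0.05, and limma's adjusted p over all genes was between 0.361 and 0.510. The chaperones were read in the same livers and can move together, so they do not count as separate replicates. Of 19 further ER folding enzymes, described below, 1 (5.26%) was lower here at an unadjusted p under 0.05 and 0 higher. That stands beside 6.19% of genes tested that were lower, and the median change of these enzymes was -0.06. In bulk liver, less RNA per cell and fewer of the cells that carry it cannot be told apart.

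Hspa5 (BiP), the main ER chaperone of the Hsp70 family and a brake on all 3 sensors, read 14.20, 14.08 and 14.09 in CKO CDDO-Im livers, 14.46, 14.42 and 14.61 in CKO vehicle livers, 14.67, 14.53 and 14.29 in WT CDDO-Im livers and 14.43, 14.62 and 14.56 in WT vehicle livers. The 3 CKO CDDO-Im livers were the lowest of the 12. The change from CKO vehicle was -0.38 ± 0.10 (unadjusted p = 0.00434, adjusted p = 0.392) and that from WT CDDO-Im was -0.38 ± 0.10 (adjusted p = 0.107). Both of its other probe sets had changes from CKO vehicle of -0.49 and -0.50. The interaction of genotype and drug was -0.33 ± 0.15 for Hspa5 (unadjusted p = 0.0449, adjusted p = 0.476).

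Hsp90b1 (GRP94), the ER member of the Hsp90 family, read 13.24, 13.23 and 13.70 in CKO CDDO-Im livers and 13.91, 13.96 and 13.86 in CKO vehicle livers, a change of -0.52 ± 0.14 (adjusted p = 0.361). In WT CDDO-Im livers it read 13.91, 13.78 and 13.56, against 13.68, 13.78 and 13.94 in WT vehicle livers, and these groups overlapped. The other probe set of Hsp90b1 gave -0.28 ± 0.10 for the drug in CKO livers. Dnajb11, a co-chaperone of Hspa5, had a narrow spread within CKO groups, at 11.48, 11.47 and 11.44 in CKO CDDO-Im livers against 11.80, 11.83 and 11.82 in CKO vehicle livers (-0.35 ± 0.12, adjusted p = 0.447). Creld2, a secreted ER stress-induced protein, read 12.22, 12.19 and 12.12 in CKO CDDO-Im livers, 12.85, 12.95 and 12.87 in CKO vehicle livers, 12.99, 12.37 and 11.69 in WT CDDO-Im livers and 12.51, 13.18 and 12.94 in WT vehicle livers. Its change with the drug was -0.71 ± 0.27 in CKO livers (adjusted p = 0.495) and -0.52 ± 0.27 in WT livers (adjusted p = 0.322). The drug in CKO livers gave -0.67 ± 0.24 for Sdf2l1, a chaperone of the Hspa5 complex, and -0.48 ± 0.16 for Manf, a secreted protein retained by Hspa5. It gave -0.20 ± 0.07 for the lectin chaperone Calr, and -0.39 ± 0.13 and -0.33 ± 0.13 for the protein disulfide isomerases Pdia3 and Pdia6. The dimmer probe set of Pdia3 gave -0.01 ± 0.08 between the same CKO groups. The remaining 5, Canx, Pdia4, Hyou1, Dnajb9 and Dnajc3, overlapped between these groups, with changes of -0.24 to -0.02.

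**Figure D1:**
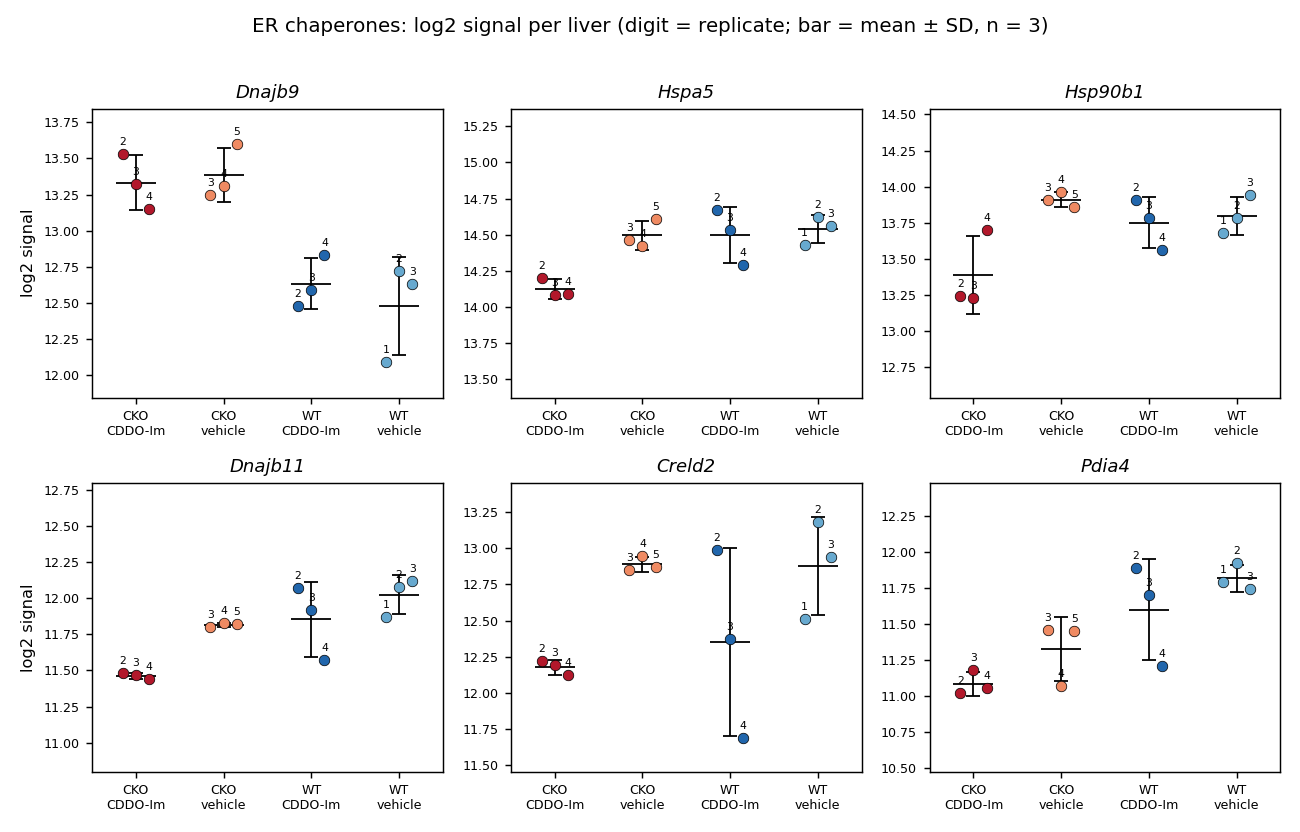
Log2 signal (y axis, a separate range in each panel) of 6 ER chaperones in each of the 12 livers by group (x axis), with digits for the replicate number and bars for the mean ± SD of 3 livers. Dnajb9 is higher in the 6 CKO livers than in the 6 WT livers, while for Hspa5, Hsp90b1, Dnajb11 and Creld2 the CKO CDDO-Im livers lie below the CKO vehicle livers with no overlap.

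Between the vehicle groups, 8 of the 14 chaperones had a lower mean in CKO livers and 6 a mean that was higher or equal within rounding (median -0.06). Pdia4, a protein disulfide isomerase, read 11.46, 11.07 and 11.45 in CKO vehicle livers, against 11.79, 11.92 and 11.74 in WT vehicle livers, without overlap (-0.49 ± 0.16, adjusted p = 0.108). It was 11.02, 11.18 and 11.06 in CKO CDDO-Im livers, against 11.89, 11.70 and 11.21 in WT CDDO-Im livers, also without overlap (-0.51 ± 0.16, adjusted p = 0.157). Chaperones that did not overlap between CKO vehicle and WT vehicle numbered 1 higher and 4 lower, beside 13% and 13.3% of genes tested. Non-overlap in CKO CDDO-Im against WT CDDO-Im livers held for 1 chaperone that lay higher and 5 that lay lower, beside 10.4% and 12.2% of genes tested. With the drug in WT livers, 11 of 14 chaperone means were lower (median -0.16) and 2 did not overlap, Canx and Pdia6, beside 13.1% of genes tested. The WT CDDO-Im livers differed among themselves: relative to the mean of the remaining 2, 13 of 14 chaperones were high in replicate 2 (median 0.31) and 12 of 14 were low in replicate 4 (median -0.37). Without WT CDDO-Im replicate 4, Pdia4 and Dnajb11 were called lower in CKO CDDO-Im livers than in WT CDDO-Im livers (adjusted p = 0.0459 and 0.0374). That liver was the low one of its group for both genes, so smaller p-values were built into this fit.

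No gene of ER-associated degradation was called by limma in any of the 6 tests, and at an unadjusted p under 0.05 there was 1, Derl1, with the drug in CKO livers (-0.22 ± 0.10), which is 14.3% of the list beside 9.47% of genes tested. Herpud1, a membrane protein of the degradation complex, was the only one of the 7 whose mean was higher with the drug in CKO livers (0.30 ± 0.19, adjusted p = 0.653). It read 14.49, 14.81 and 15.10 in CKO CDDO-Im livers, against 14.51, 14.25 and 14.73 in CKO vehicle livers, and these groups overlapped. Derl3, a channel component, had the lowest change there, -0.83 ± 0.47 (adjusted p = 0.611), at 9.62, 10.11 and 9.08 in CKO CDDO-Im livers against 10.86, 10.24 and 10.19 in CKO vehicle livers. Its WT CDDO-Im livers spread from 9.38 to 11.04 and its WT vehicle livers from 9.82 to 11.25, so both spans took in all 3 CKO vehicle values. Syvn1 (HRD1), the ubiquitin ligase of this pathway, ranged from 10.43 to 11.02 in CKO CDDO-Im livers, 10.31 to 11.45 in CKO vehicle livers, 10.57 to 11.71 in WT CDDO-Im livers and 10.12 to 11.20 in WT vehicle livers. Sel1l, the partner of Syvn1, and the mannosidase-like Edem1 had changes of -0.33 to 0.32 over the 5 comparisons, and the channel proteins Derl1 and Derl2 had changes of -0.22 to 0.19.

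Derl2 gave different results by probe set. The brighter, which stood for the gene, had a change of -0.16 ± 0.10 between CKO vehicle and WT vehicle livers (adjusted p = 0.396). The dimmer read 9.40, 9.44 and 9.38 in CKO vehicle livers, 9.62, 9.16 and 8.98 in WT CDDO-Im livers and 10.06, 10.07 and 9.91 in WT vehicle livers. With every probe set tested, it was lower in CKO vehicle than in WT vehicle livers (-0.60 ± 0.14, adjusted p = 0.034) and lower in WT CDDO-Im than in WT vehicle livers (-0.75 ± 0.14, adjusted p = 0.0174). Which Derl2 transcripts each probe set reads is not stated in the files.

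The sensors and transcription factors gave no call with limma either, and at an unadjusted p under 0.05 there were 3 of 5 (60%) lower with the drug in WT livers, beside 11.2% of genes tested, and 2 of 5 (40%) higher in CKO vehicle than in WT CDDO-Im livers, beside 12.7%. With the drug in WT livers, 4 of the 5 had a lower mean (median -0.39), and 3 lay lower without overlap, Xbp1, Atf4 and Ern1, beside 13.1% of genes tested. Xbp1, whose spliced message encodes the chaperone activator, read 13.90, 13.81 and 13.55 in WT CDDO-Im livers, against 13.91, 14.26 and 14.43 in WT vehicle livers (-0.45 ± 0.15, adjusted p = 0.129). The spliced and unspliced messages are not separated in these values. Xbp1 was 14.03, 13.72 and 13.73 in CKO CDDO-Im livers, against 14.12, 13.96 and 14.21 in CKO vehicle livers, and these groups overlapped (-0.27 ± 0.15, adjusted p = 0.606).

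Atf4 message read 11.92, 11.48 and 11.35 in CKO CDDO-Im livers, 12.02, 11.70 and 11.70 in CKO vehicle livers, 11.06, 11.50 and 11.29 in WT CDDO-Im livers and 11.75, 11.82 and 11.66 in WT vehicle livers. The WT CDDO-Im livers lay below the WT vehicle livers without overlap (-0.46 ± 0.16, adjusted p = 0.145). CKO vehicle livers lay above WT CDDO-Im livers without overlap (0.52 ± 0.16, adjusted p = 0.0909), and CKO vehicle against WT vehicle gave 0.06 ± 0.16 (adjusted p = 0.864). Its second probe set gave -0.49 for the drug in WT livers. For the drug in CKO livers the first probe set gave -0.23 ± 0.16 and the second -0.50 ± 0.18, without a call. Between the drug-treated groups they gave 0.30 and -0.02. Atf4 is regulated largely by translation, which arrays of RNA do not measure. Ern1 had a change of -0.39 ± 0.16 with the drug in WT livers (adjusted p = 0.226), while Atf6 and Eif2ak3 had changes there of 0.08 ± 0.21 and -0.04 ± 0.19.

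None of the 8 Atf4 targets tested was called in any comparison, and between the vehicle groups the largest differences belonged to Asns and Trib3, which varied widely among the CKO vehicle livers. At an unadjusted p under 0.05 limma gave Asns and Trib3 between the vehicle groups (25% of the 8, beside 22.2% of genes tested), and Atf5 and Ddit3 for the drug in CKO livers (25%, beside 9.47%). For CKO vehicle against WT CDDO-Im it gave Asns, Ddit3 and Slc3a2 (37.5%, beside 23%). Asns (asparagine synthetase) read 8.08, 9.68 and 9.44 in CKO CDDO-Im livers, 11.56, 6.83 and 10.51 in CKO vehicle livers, 8.66, 5.26 and 5.85 in WT CDDO-Im livers and 5.85, 6.83 and 6.95 in WT vehicle livers. Of the 6 CKO livers, 5 read at least 8.08, and of the 6 WT livers, 5 read at most 6.95, bounds taken from these same values. The genotypes overlapped, with 6.83 in CKO vehicle replicate 4 and 8.66 in WT CDDO-Im replicate 2. The change between the vehicle groups was 3.09 ± 1.17 (95% interval 0.50 to 5.69, adjusted p = 0.147), and that between the drug-treated groups was 2.47 ± 1.17 (adjusted p = 0.316). Its second probe set followed the same order in the CKO vehicle livers, at 9.79, 5.03 and 8.93. The SD of Asns within groups was 1.63, and 12 of the 8338 genes tested, Asns included, varied at least as much.

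Trib3, a pseudokinase that dampens Atf4 and Ddit3 activity, read 5.14, 6.53 and 6.91 in CKO CDDO-Im livers, 7.30, 3.84 and 7.57 in CKO vehicle livers, 4.80, 4.38 and 5.30 in WT CDDO-Im livers and 4.25, 3.59 and 3.90 in WT vehicle livers. It passed the filter on 6 arrays, none of them WT vehicle, so its changes from WT vehicle are set against values below 5. WT CDDO-Im livers lay above WT vehicle livers without overlap (0.91 ± 0.85, adjusted p = 0.602), where 10.1% of genes tested lay higher in that way. Its change between the vehicle groups was 2.32 ± 0.85 (adjusted p = 0.135). CKO vehicle replicate 4 was again the low liver. Without replicate 4, Asns (4.49, adjusted p = 0.0247), Trib3 (3.52, adjusted p = 0.00434) and Sesn2 (0.82, adjusted p = 0.0456) were called higher in CKO vehicle than in WT vehicle livers, and 4 members in all were called. That liver was the low one for these same genes, so larger changes and smaller p-values were built into this fit. It shows how far the results rest on 1 liver and is no test of a rise. Sesn2, a leucine-binding inhibitor of mTORC1 signalling, read 6.33, 4.75 and 6.12 in CKO vehicle livers, against 5.60, 5.27 and 5.35 in WT vehicle livers, and with all arrays its change was 0.33 ± 0.35 (adjusted p = 0.625).

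In CKO vehicle replicate 4, 8 of the 9 Atf4 targets lay below the mean of replicates 3 and 5 (median -0.67), 3 of them by more than 1 log2 unit. In replicate 3, 8 of 9 lay above the mean of replicates 4 and 5 (median 0.75). Of all genes tested, 1.01% lay more than 1 log2 unit low in replicate 4 and 0.516% that much high in replicate 3. The summed level of the 6 measured neutrophil markers, of which 4 stayed below 5 on every array, was 9.54 to 13.36 in CKO vehicle livers against 6.92 to 9.42 in WT vehicle livers. Its highest value came with Lcn2, at 13.35 in CKO vehicle replicate 3, a gene that hepatocytes can also express. The part of these differences between livers in the Atf4 target results was not tested.

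Ddit3 (CHOP), a transcription factor tied to cell death under prolonged ER stress, read 6.69, 6.75 and 6.89 in CKO CDDO-Im livers, 8.03, 6.99 and 7.57 in CKO vehicle livers, 6.84, 6.21 and 6.79 in WT CDDO-Im livers and 6.85, 7.02 and 7.55 in WT vehicle livers. The CKO vehicle livers lay above both drug-treated groups without overlap. WT vehicle livers also lay above WT CDDO-Im livers without overlap, by a narrow margin (drug change -0.52 ± 0.27, adjusted p = 0.319). CKO CDDO-Im minus CKO vehicle was -0.75 ± 0.27 (adjusted p = 0.479), and CKO vehicle minus WT CDDO-Im was 0.92 ± 0.27 (adjusted p = 0.0823). In that last comparison 7 members, Ddit3 among them, lay higher without overlap and 0 lower, beside 15.4% and 12.5% of genes tested. Atf5, a transcription factor related to Atf4, read 10.76, 11.60 and 12.06 in CKO CDDO-Im livers, against 12.87, 11.93 and 12.32 in CKO vehicle livers (-0.90 ± 0.32, adjusted p = 0.477), with overlap. Slc3a2, the heavy chain shared by several amino acid exchangers, was 11.64 in CKO vehicle replicate 3 and 9.70 to 10.50 on the other 11 arrays. Its change between the vehicle groups was 0.60 ± 0.33 (adjusted p = 0.322).

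Chac1, which degrades glutathione, read 8.84, 7.85 and 7.46 in CKO CDDO-Im livers and 7.26 to 7.85 on the other 9 arrays, so that its change between the drug-treated groups, 0.50 ± 0.30 (adjusted p = 0.436), came with 1 high liver. Ppp1r15a (GADD34), the phosphatase subunit that reverses eIF2 alpha phosphorylation, had the same value on several arrays, and its changes of -0.16 to 0.11 carry little information. Nupr1, a stress-induced chromatin protein, read 3.11, 2.25 and 2.61 in CKO vehicle livers and 2.22 to 2.46 on the other 9 arrays, at or near the lowest values, and was not tested.

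**Figure D2:**
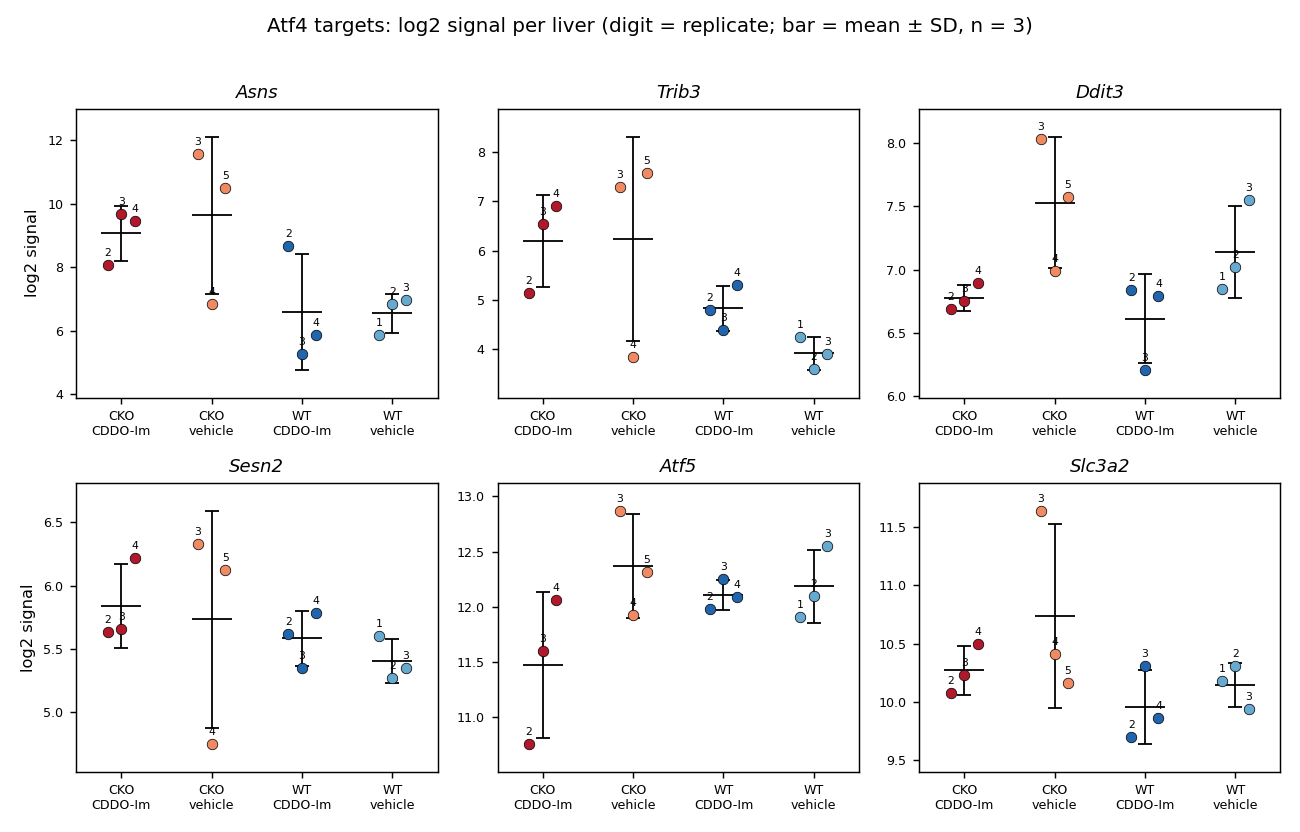
Log2 signal (y axis, a separate range in each panel) of 6 Atf4 targets in each of the 12 livers by group (x axis), with digits for the replicate number and bars for the mean ± SD of 3 livers. In the Asns, Trib3 and Sesn2 panels CKO vehicle replicate 4 lies apart below replicates 3 and 5, and for Ddit3 the CKO vehicle livers lie above both drug-treated groups.

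Set side by side, the median change lay lower for chaperones than for all 9 Atf4 targets in 4 of 5 comparisons. It lay lower in each comparison than for the 8 Atf4 targets tested, which leave out Nupr1. Between the vehicle groups the median change was -0.06 for 14 chaperones and 0.34 for 9 Atf4 targets, of which 8 had a higher mean in CKO vehicle livers, and the median over all genes tested was -0.006. With the drug in CKO livers both medians were negative, at -0.34 for chaperones and -0.40 for Atf4 targets. Between the drug-treated groups they were -0.23 and 0.26, and with the drug in WT livers they were -0.16 and -0.05. For CKO vehicle against WT CDDO-Im they were 0.09 and 0.39. Without Nupr1, whose values lay at or near the lowest, the Atf4 target median was -0.26 for the drug in CKO livers, above that of chaperones. It was then 0.36 between the vehicle groups, 0.28 between the drug-treated groups, 0 with the drug in WT livers and 0.52 for CKO vehicle against WT CDDO-Im. The difference, chaperones minus all 9 Atf4 targets, was thus -0.41 between the vehicle groups, -0.48 between the drug-treated groups and 0.05 for the drug in CKO livers. The same difference taken within each liver had a pooled SD of 0.274 over 3 livers a group. The CKO vehicle livers spread more than this pooled value shows, at -0.79, 0.18 and -0.19. In WT vehicle livers the difference was 0.19, 0.29 and 0.37, so CKO vehicle replicate 4 lay almost level with the lowest of these. No p-value is given for these list medians.

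The liver-by-liver medians, taken relative to each gene's mean over 12 livers, show which livers stand behind them. The chaperone median was -0.21, -0.30 and -0.23 in CKO CDDO-Im livers, 0.05, 0.05 and 0.10 in CKO vehicle livers, 0.23, 0.02 and -0.21 in WT CDDO-Im livers and 0.04, 0.27 and 0.16 in WT vehicle livers. All CKO CDDO-Im livers lay below all vehicle livers of both genotypes, and WT CDDO-Im replicate 4 lay level with the highest of them. The Atf4 target median was -0.11, 0.02 and 0.02 in CKO CDDO-Im livers, 0.84, -0.13 and 0.29 in CKO vehicle livers, -0.06, -0.21 and -0.11 in WT CDDO-Im livers and -0.16, -0.02 and -0.21 in WT vehicle livers. The CKO vehicle livers thus held both of the highest Atf4 target medians and 1 within the range of the WT livers. The median SD within groups was 0.19 for chaperones, 0.44 for all 9 Atf4 targets and 0.163 for all genes tested.

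**Figure D3:**
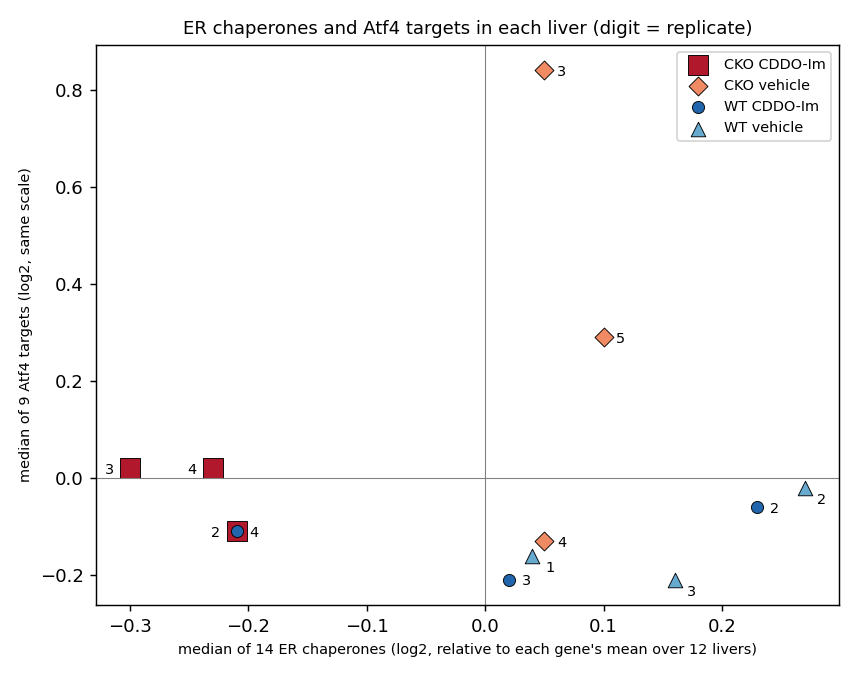
Median of 14 ER chaperones (x axis) and of 9 Atf4 targets (y axis) in each liver, in log2 units relative to each gene's mean over the 12 livers, with 1 symbol a group and digits for the replicate number. The 3 CKO CDDO-Im livers lie at the left, between -0.30 and -0.21, CKO vehicle replicates 3 and 5 lie highest, at 0.84 and 0.29, and CKO CDDO-Im replicate 2 and WT CDDO-Im replicate 4 coincide.

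**Figure D4:**
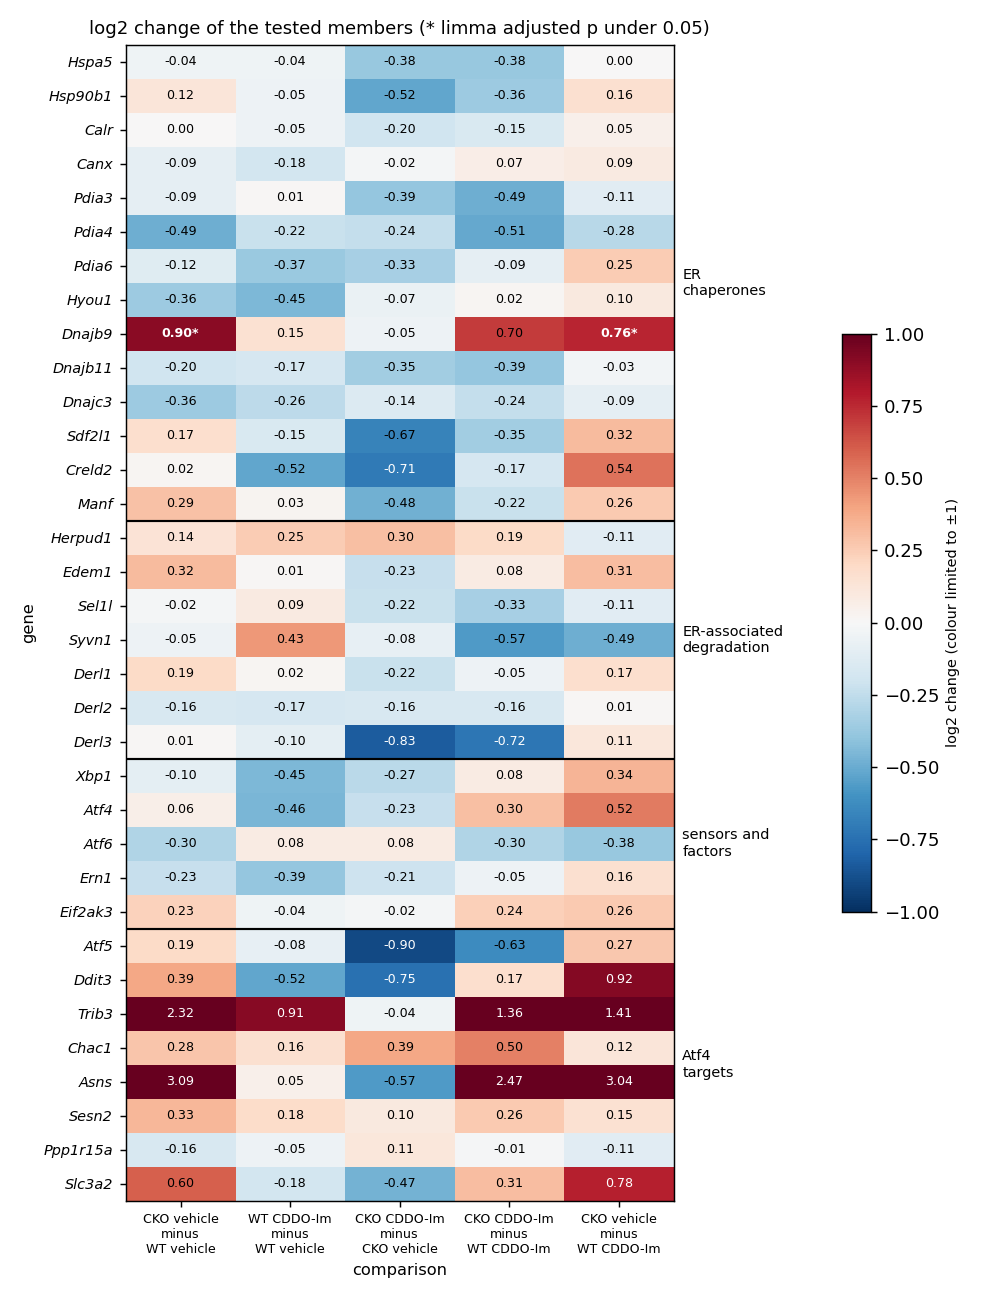
Log2 change (colour and printed value, colour limited to 1 in either direction) of the 34 members tested (rows, by role) in 5 comparisons (columns), with an asterisk where limma's adjusted p was under 0.05. Dnajb9 carries both asterisks, the chaperone rows are negative throughout the column for the drug in CKO livers, and Asns and Trib3 show the highest changes between the vehicle groups.

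Other genes of the pathway were described from lists of the same kind. Of the 14 tested among 27 listed genes of amino acid transport and synthesis under Atf4, 5 rose and 0 fell between CKO vehicle and WT vehicle livers, and 3 rose and 0 fell with the drug in WT livers, beside 3.25% and 1.88% of genes tested that rose. Ddit4 (REDD1), an inhibitor of mTORC1, read 11.84, 11.07 and 11.24 in CKO vehicle livers, 10.86, 10.24 and 12.20 in WT CDDO-Im livers and 9.61, 7.90 and 7.47 in WT vehicle livers. It was 8.35-fold higher in CKO vehicle (log2 change 3.06 ± 0.63, adjusted p = 0.0181) and 6.85-fold higher in WT CDDO-Im livers (2.78 ± 0.63, adjusted p = 0.0397) than in WT vehicle livers. Ddit4 lost these calls in 3 and in 9 of the 12 fits that left out 1 array, and each in 3 of 10 other fits (adjusted p up to 0.126 and 0.158). Got1, a cytosolic aspartate aminotransferase, rose 2.05-fold and 2.17-fold (adjusted p = 0.0397 and 0.0411). In each comparison its call was lost in 9 of the 12 fits without 1 array and in 2 of 10 other fits (adjusted p up to 0.146 and 0.155).

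The other genes called in that list were taken from its count after their values were seen. Slc6a9, a glycine transporter, read 11.30, 10.94 and 10.88 in CKO vehicle livers, 10.80, 10.72 and 10.63 in WT CDDO-Im livers and 9.90, 10.11 and 10.09 in WT vehicle livers. It rose 2.01-fold in CKO vehicle livers (log2 SE 0.12, adjusted p = 0.00139) and 1.60-fold in WT CDDO-Im livers (adjusted p = 0.0161) relative to WT vehicle livers. Between CKO vehicle and WT vehicle livers, Eif4ebp1, a translation repressor, rose by 0.91 ± 0.18 (adjusted p = 0.014) and Cth, the cystathionine lyase that makes cysteine, by 0.52 ± 0.12 (adjusted p = 0.0301). Whether the calls of Slc6a9, Eif4ebp1 and Cth hold under the alternative fits was not examined. Slc7a11, the cystine transporter that pairs with Slc3a2, was not tested and was also chosen after its values were seen. It read 3.94, 2.56 and 4.86 in CKO CDDO-Im livers and 6.21, 2.32 and 4.72 in CKO vehicle livers. All 6 WT livers read 2.22 to 2.24, and CKO vehicle replicate 4 was again the lowest of the CKO livers. The part of Atf4, or of Nrf2, in the values of this list was not tested.

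The lists nearer to the ER gave calls of single genes. Of 19 further ER folding enzymes tested, 0 rose and 1 fell with the drug in WT livers, beside 1.88% and 1.76% of genes tested. That gene was the prolyl isomerase Fkbp14 (-0.84 ± 0.19, adjusted p = 0.0377). Its call was lost in 6 of the 12 fits without 1 array (adjusted p up to 0.131) and in 4 of 9 other fits (up to 0.163). Of 28 genes of translocation and N-glycosylation tested, 0 rose and 1 fell with the drug in WT livers, beside the same shares. At an unadjusted p under 0.05, 7 of the 28 (25%) were lower there, beside 11.2% of genes tested. The 1 called was Rpn1, a subunit of the oligosaccharyltransferase (-0.57 ± 0.10, adjusted p = 0.0121). It read 12.29, 12 and 12.05 in WT CDDO-Im livers against 12.68, 12.73 and 12.67 in WT vehicle livers. The call of Rpn1 was lost without WT CDDO-Im replicate 4 (adjusted p = 0.0556), with only the groups compared and with the replicate block (up to 0.0728). In the same list only Srp14, part of the signal recognition particle, was called higher in CKO vehicle than in WT CDDO-Im livers (0.31 ± 0.07, adjusted p = 0.0315), beside 2.42% of genes tested. This call was lost in 6 of the 12 fits without 1 array (adjusted p up to 0.102) and in 2 of 10 other fits (up to 0.145). In that comparison 27 of the 28 had a higher mean, where 47% of genes tested had a lower one. At an unadjusted p under 0.05, 14 of the 28 (50%) were higher and 0 lower, beside 12.7% of genes tested higher. Of 15 further degradation genes tested, 1 rose and 0 fell between CKO vehicle and WT vehicle livers, beside 3.25% and 3.26% of genes tested. That gene was the lectin Erlec1 (0.48 ± 0.09, adjusted p = 0.0124). Erlec1 was also called against WT CDDO-Im livers (0.39 ± 0.09, adjusted p = 0.0417), where 2.42% of genes tested were called higher. Both calls were lost when the probe sets of each gene were averaged and with the replicate block. Its call against WT vehicle was also lost without CKO vehicle replicate 3 (adjusted p = 0.0549). That against WT CDDO-Im was lost in 10 of the 12 fits without 1 array (adjusted p up to 0.135) and in 6 of 10 other fits.

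Among 14 further stress regulators tested, 1 rose and 1 fell between CKO vehicle and WT vehicle livers, beside 3.25% and 3.26% of genes tested. Mbtps2, the protease that makes the second of the cuts that release Atf6, read 7.84, 7.94 and 7.77 in CKO vehicle livers, against 7.34, 7.34 and 7.06 in WT vehicle livers (0.60 ± 0.10, adjusted p = 0.00559). Eif2ak2 (PKR), an eIF2 alpha kinase that responds to double-stranded RNA, fell by 49.9% (log2 SE 0.18, adjusted p = 0.0107). It read 4.71, 5.17 and 5.18 in CKO vehicle livers, against 5.77, 6.36 and 5.93 in WT vehicle livers. Its CKO vehicle mean, 5.02, lay just above 5, the lowest mean for which a fold is given, so the size of this fall is uncertain. Neither call was lost when any 1 array was left out, but both were lost with the replicate block (adjusted p = 0.0738 for Mbtps2 and 0.0852 for Eif2ak2), and that of Eif2ak2 also with no filter on low values (0.0556) and with only the groups compared (0.0676). Cebpb, a partner of Atf4 at the C/EBP-ATF element, alone in the list rose with the drug in WT livers (1.04 ± 0.23, adjusted p = 0.037), beside 1.88% of genes tested. Its call was lost in 8 of the 12 fits without 1 array and in 2 of 10 other fits (adjusted p up to 0.143). Creb3, a membrane-bound transcription factor, alone in the list was called higher in CKO vehicle than in WT CDDO-Im livers (0.50 ± 0.12, adjusted p = 0.0406), beside 2.42% of genes tested. This call was lost in 7 of the 12 fits without 1 array (adjusted p up to 0.112) and in 3 of 10 other fits (up to 0.113).

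Of 14 aminoacyl-tRNA synthetases tested, limma called none between CKO vehicle and WT vehicle livers. At an unadjusted p under 0.05 there were 5 (35.7%), 3 higher and 2 lower, beside 22.2% of genes tested. With the drug in WT livers 7 of the 14 (50%) had a lower mean at an unadjusted p under 0.05, beside 11.2% of genes tested. After the adjustment 1 was called lower, beside 1.76% of genes tested. That gene, the histidyl-tRNA synthetase Hars, fell with the drug in WT livers (-0.34 ± 0.07, adjusted p = 0.0377). Its call was lost in 7 of the 12 fits without 1 array. It was also lost in 6 of 10 other fits (adjusted p up to 0.175), median centring and quantile normalization of the arrays among them. Lars and Iars, which charge leucine and isoleucine tRNAs, were the 2 called higher in CKO vehicle than in WT CDDO-Im livers, beside 2.42% of genes tested. At an unadjusted p under 0.05, 8 of the 14 (57.1%) were higher in that comparison and 0 lower, beside 12.7% of genes tested higher. Lars read 10.04, 10.06 and 9.78 in CKO vehicle livers, against 9.39, 9.03 and 8.98 in WT CDDO-Im livers (0.82 ± 0.13, adjusted p = 0.00874). Iars read 10.94, 10.80 and 10.68 in CKO vehicle livers, against 10.39, 10.25 and 10.12 in WT CDDO-Im livers (0.55 ± 0.10, adjusted p = 0.0154). Leaving out 1 array lost the call of Iars in 2 of 12 fits (adjusted p up to 0.0624) and that of Lars in 0 of 12, and both were lost with only the groups compared and with the replicate block. WT vehicle livers lay between these groups for both genes, at 9.48 to 9.61 for Lars and 10.53 to 10.59 for Iars. With the drug in CKO livers and between the drug-treated groups, limma called no gene of these 6 lists, where 0% and 1.54% of genes tested were called. At an unadjusted p under 0.05 there were 8 and 19 of their 104 genes tested, or 7.69% and 18.3%, beside 9.47% and 16.8% of all genes tested.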

How the data were processed

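The authors deposited log2 signals of 45101 probe sets on 12 arrays, for which the submitters' processing notes name GCRMA 2.12.1 and R 2.7.0. That method corrects the background by probe sequence and compresses signals near the floor, where changes depend on its model. The settings are not stated in the labels. No value was missing and no pair of arrays was identical. The platform annotation names 1 gene for 34945 probe sets and several for 932, which were not used. The brightest probe set stood for each gene, and genes with at least 3 arrays above 5 were tested (8338). Group means of the 12 arrays were fitted with limma 3.58.1 in R 4.3.3 (8 residual and 2.32 prior degrees of freedom). P-values are two-sided and adjusted by Benjamini-Hochberg over all genes tested, with a call at an adjusted p under 0.05. Folds need both means at 5 or more. Precision is limited by the number of arrays. The labels gave the groups.

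Replicate numbers were not treated as pairs. Alternatives changed the choice of probe set, the filter, the scaling, the groups in the fit, the variance prior and the block, and left out each array. Members, lists and tests were chosen with earlier results of these data known. Any member could be named, and of the other lists per comparison the 2 that rose most and the 2 that fell most among those called. Promoters came from RefSeq (GRCm38.p6).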

Additional observations from a re-analysis of the deposited data

How the results depend on the processing

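Limits first. With 3 livers a group, 1 array can decide a call, GCRMA compresses low signals such as those of Trib3, Nupr1 and Slc7a11, and bulk RNA does not show translation, Xbp1 splicing or cell type. The count of 1 member called between CKO vehicle and WT vehicle livers was 0 with no filter on low values, 0 with only the groups compared in the fit and 0 with the replicate number as a block, where the change of Dnajb9 was 0.61. Leaving out 1 array gave 0 to 4, with 4 without CKO vehicle replicate 4, 0 without CKO vehicle replicate 5 and 2 without WT CDDO-Im replicate 4, where Pdia4 was called lower. Averaging each gene's probe sets gave 1 call for the drug in WT livers (Derl2, lower), 1 between the drug-treated groups (Hspa5, lower, adjusted p = 0.0482) and 2 for CKO vehicle against WT CDDO-Im (Dnajb9 and Pdia6). Between the drug-treated groups, leaving out 1 array gave 0 to 2 calls, with 1 (Dnajb9) without WT vehicle replicate 1. For CKO vehicle against WT CDDO-Im, the count of 1 was 0 with no filter, 0 with only the groups compared and 0 with the replicate block, and 0 to 3 without 1 array (Ddit3, Trib3 and Asns without CKO vehicle replicate 4). Over all genes, the 543 calls between the vehicle groups became 232 with no filter, 223 with only the groups compared and 55 with the block. Fewer genes or samples in the fit, or more genes adjusted over, are part of the construction of these alternatives; the cause of the other shifts was not tested.

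The difference in median change, chaperones minus Atf4 targets, stayed negative between the vehicle groups (-0.70 to -0.19 without 1 array, -0.70 without CKO vehicle replicate 4) and between the drug-treated groups (-0.71 to -0.33). For CKO vehicle against WT CDDO-Im it was -0.56 to -0.07 without 1 array and -0.68 with genes of repeated values left out. For the drug in CKO livers it was -0.34 to 0.28, and for the interaction -0.28 to 0.38, so neither has a settled sign. Over all comparisons, 108 alternatives kept the count of members called and 23 did not. For the difference between lists, 119 stayed within its spread over livers (SD 0.274) and 6 did not. A count of 0 that stayed 0 was taken as kept, and a difference could change sign within that spread. These tallies are thus no measure of how firm the results are. Of the alternatives run on changes of named genes, 254 kept the call, 140 lost it and 0 reversed the direction. Same-numbered livers correlated in their deviations at -0.121 and -0.166 between CKO vehicle and WT CDDO-Im, -0.0732 and -0.00137 between the CKO groups, -0.0339 and 0.094 between the WT groups, and 0.136 for the 1 number the vehicle groups share. Between the drug-treated groups they correlated at 0.127, 0.078 and 0.146, and 6 of 6 of them correlated best with their own number, which is a hint from the data and not from the design.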
